A study of Danio rerio with 6 samples.

Results

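The genes described here encode the strands and scaffolds of tight junctions: the claudins, the occludin and MARVEL domain proteins, and the zonula occludens scaffolds. They were taken by name, as every symbol that starts with cldn, ocln, marveld or tjp and a digit, which gave 44 of the 30677 symbols in the data. The members and the lists used below were chosen with earlier results of these data known. The RNA was that of GFP-positive cells, obtained by flow sorting of wild-type zebrafish trunks (without brain and tail) from embryos 14 hours post fertilisation. The sorts came from 3 BAC transgenic lines: nkx2.2a:memGFP, with a membrane-bound GFP, olig2:GFP and dbx1b:GFP, with 2 libraries each (libraries 1 and 2). The genes nkx2.2a, olig2 and dbx1b mark the p3, motor neuron and p0 progenitor domains of the ventral neural tube, from ventral to dorsal. The transgenic line and the sort differ together in every comparison, and the form of GFP also differs in those with the nkx2.2a sort, so these cannot be told apart. The labels do not say that libraries came from separate embryo pools, so the p-values describe only how these libraries vary, which may be technical.

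Tight junctions seal the space between epithelial cells near their apical surface. Claudins are membrane proteins that form the strands, and which claudins a cell makes sets how tight the seal is and which ions pass. Occludin and tricellulin (marveld2) join the strands, tricellulin where 3 cells meet, and the zonula occludens proteins (tjp genes) tie the strands to actin. Neural progenitors form an epithelium around the lumen of the neural tube, whereas the skin of the embryo is sealed by another set of claudins. In zebrafish, cldn5a is known from the neuroepithelium, where it seals the brain ventricles, while cldnb, cldne, cldnf, cldni, cldn1 and cldn7b are used here as the epidermal type. The neural type is taken as cldn5a with cldn11a, cldn11b, cldn19 and cldnk, whose mammalian or zebrafish relatives are known from nerve and myelin.

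The libraries held 3.25 to 6.93 M fragments on transcripts, or 19.4% to 33.4% of all fragments. A fragment was worth 0.144 to 0.307 CPM (mapped reads scaled to a library of 1000000), and a count of 0 allowed 0.433 to 0.922 CPM per library (3 fragments). Each reporter gene was at its highest in its own sort: in its own sort nkx2.2a stood at 429 ± 92.6 CPM (mean ± SD, n = 2), olig2 at 172 ± 66.9 CPM and dbx1b at 199 ± 23.2 CPM. The nkx2.2a libraries also held olig2, at 19.3 and 70.5 CPM, and dbx1b, at 11.5 and 49.3 CPM, in both cases more in library 2. In the olig2 libraries nkx2.2a was at 8.22 and 26.6 CPM and dbx1b at 17.0 and 9.24 CPM, and in the dbx1b libraries neither of the other reporter genes was above 4.09 CPM. All 13 neural progenitor markers listed were present, and their summed level was 2440 to 2693 CPM in nkx2.2a libraries, 2074 to 2606 CPM in olig2 libraries and 2511 to 3019 CPM in dbx1b libraries. Single markers of this list differed: pax6a was at 32.7 and 27.5 CPM in nkx2.2a, 132 and 156 CPM in olig2, and 163 and 142 CPM in dbx1b libraries. The opposite order held for sox1b, at 92.5 and 101 CPM, 19.2 and 11.1 CPM, and 2.34 and 7.89 CPM. In bulk RNA, fewer cells of a type and less RNA per cell cannot be told apart.

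Of the 44 genes, 31 passed the filter on low counts and were tested, 9 had reads but too few (cldn10a, cldn10l2, cldn15lb, cldn17, cldn18, cldn19, cldn20, cldnd and oclnb, at most 22 fragments over all libraries), and 4 had 0 reads in every library. Those at 0 were cldn7a, cldn11a, cldn15la and cldnk, and cldnk is a claudin of zebrafish myelin. Only 15 of the 44 had at least 3 fragments in all 6 libraries. Levels are compared between genes per length, as FPKM (reads per kilobase of transcript in a library scaled to 1000000 mapped reads). In the nkx2.2a sort cldn7b led, at 123 and 85.8 FPKM, and cldn12, tjp1b, cldnb and cldn11b followed at means of 38.8 to 40.5 FPKM with overlapping libraries. In the olig2 sort tjp1b (mean 43.0 FPKM), cldn11b (37.5) and cldn7b (34.4) came first, and in the dbx1b sort tjp1b (51.1), cldn7b (43.8), cldn12 (42.5) and cldn11b (41.5), in both with overlapping libraries. How reads shared by several transcripts were placed is not known, so the rank of tjp1b, summed over 16 transcripts, is uncertain. The gene cldnb was among the first 10 members in the nkx2.2a sort and not in the others.

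**Figure D1:**
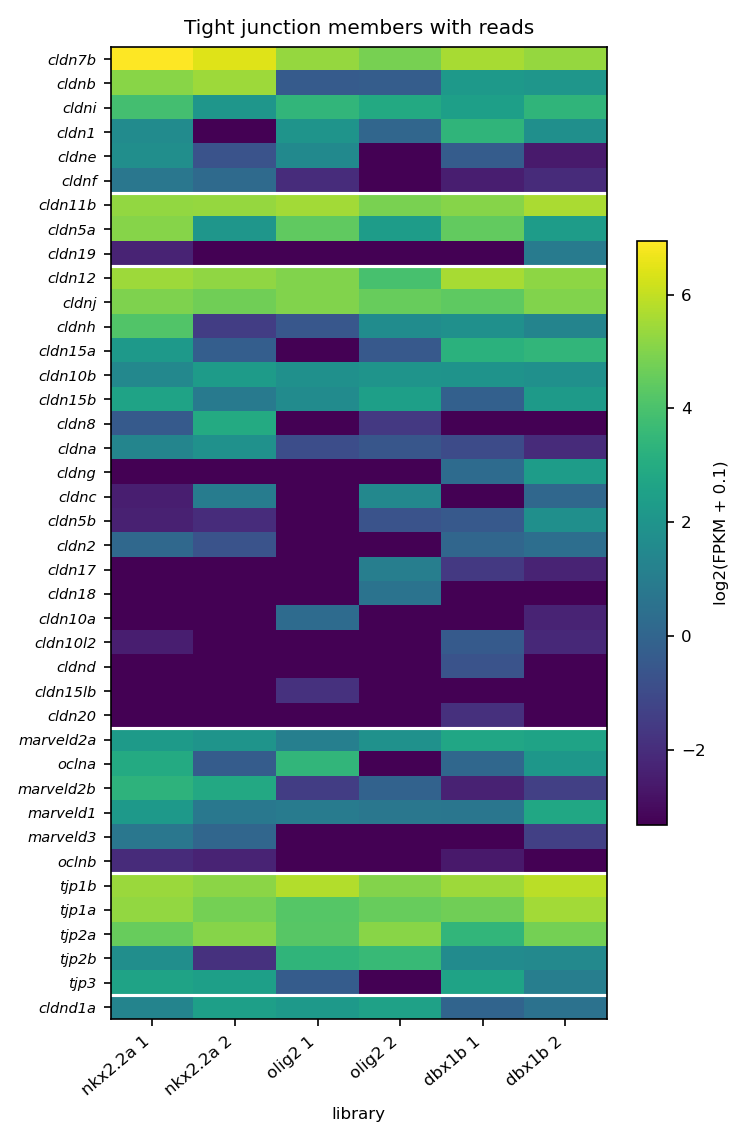
Level of the 40 tight junction genes with reads (rows, grouped as epidermal-type, neural-type and other claudins, occludin family, scaffolds and the claudin domain gene cldnd1a) in each library (columns), as log2(FPKM + 0.1). The bright rows in all 6 columns are cldn7b, cldn11b, cldn12, cldnj, tjp1a, tjp1b and tjp2a; cldnb and marveld2b are bright in the nkx2.2a columns.

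The claudin reads had a different make-up in the nkx2.2a sort. Epidermal-type claudins took 40.3% (95% Wilson interval 39.0 to 41.7) and 38.9% (37.0 to 40.9) of all claudin fragments in the nkx2.2a libraries. In the olig2 libraries the share was 21.7% (19.9 to 23.7) and 21.9% (19.9 to 24.1). In the dbx1b libraries the share was 23.5% (22.1 to 24.9) and 19.8% (18.6 to 21.1). These intervals cover counting error only and leave out the spread between libraries: those of the dbx1b libraries did not overlap each other. Neural-type claudins took 18.3 ± 1.08% (SD, n = 2) of claudin reads in the nkx2.2a sort, 27.8 ± 3.73% in the olig2 sort and 24.5 ± 1.31% in the dbx1b sort. The nkx2.2a libraries thus held 2.11 and 2.22 epidermal-type reads per neural-type read, against 0.713 and 0.869 for the olig2 and 0.998 and 0.780 for the dbx1b libraries. Most neural-type reads were of cldn11b. Without it these ratios were 5.74 and 34.0 in nkx2.2a libraries, 2.94 and 8.36 in olig2 libraries, and 3.29 and 9.34 in dbx1b libraries, and the nkx2.2a libraries no longer lay apart from the others. The summed level of the neural type overlapped between sorts, at 154 and 125 CPM in nkx2.2a libraries, 164 and 88.9 CPM in olig2 libraries and 142 and 143 CPM in dbx1b libraries. The summed level of the epidermal type did not overlap between the nkx2.2a sort and the others: it was 326 and 277 CPM in nkx2.2a libraries, 117 and 77.3 CPM in olig2 libraries, and 142 and 112 CPM in dbx1b libraries. Most of this sum was cldn7b. Without it, the epidermal type stood at 81.3 and 75.6 CPM in nkx2.2a libraries, 31.3 and 15.9 CPM in olig2 libraries, and 30.8 and 28.8 CPM in dbx1b libraries. These shares and sums are descriptions of the libraries, with no test, and both lists of claudins were chosen with earlier results of these data known.

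**Figure D2:**
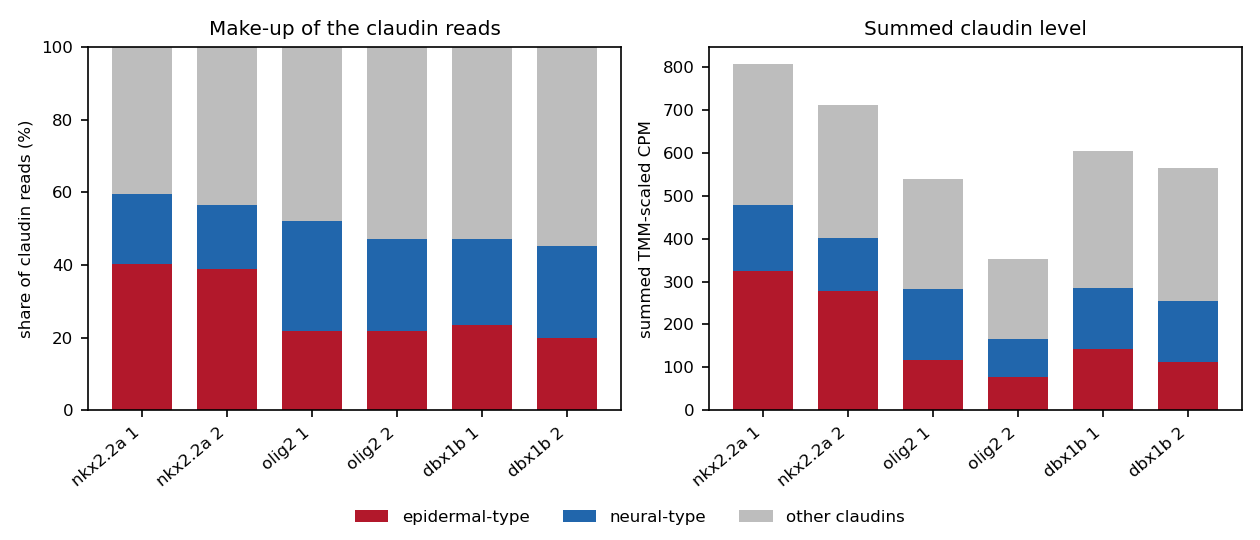
Left, share of the claudin reads (%) from epidermal-type, neural-type and other claudins in each library; right, the same as summed TMM-scaled CPM. The epidermal-type share is 40.3% and 38.9% in the nkx2.2a libraries and 19.8% to 23.5% in the other 4 libraries, while the neural-type sums overlap.

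Among the epidermal-type claudins, cldnb and cldn7b had both nkx2.2a libraries above the rest, cldnb by far. The gene cldnb, known in zebrafish from the skin and the lateral line, measured 43.4 and 63.5 CPM in nkx2.2a libraries, 0.913 and 0.948 CPM in olig2 libraries, and 6.66 and 5.50 CPM in dbx1b libraries. The 3 sorts did not overlap, and the olig2 level rested on 3 and 4 fragments. Its log2 fold change was 5.82 ± 1.01 (SE) in the nkx2.2a over the olig2 sort (edgeR adjusted p = 0.376), 3.13 ± 0.88 in the nkx2.2a over the dbx1b sort (adjusted p = 0.582) and -2.69 ± 0.90 in the olig2 over the dbx1b sort (adjusted p = 0.470). None of these passed over all genes by edgeR, although cldnb ranked 9th of 19129 by p in the first comparison. DESeq2 called all 3 (adjusted p = 5.1e-09, 0.00198 and 0.0391).

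Transcripts of cldn7b, a claudin of many epithelia, measured 244 and 202 CPM in nkx2.2a libraries, 85.8 and 61.4 CPM in olig2 libraries, and 111 and 83.2 CPM in dbx1b libraries. It was present in every sort, and the nkx2.2a libraries lay above the other 4. The log2 fold change was 1.60 ± 0.42 in the nkx2.2a over the olig2 sort (edgeR adjusted p = 0.518; DESeq2 adjusted p = 0.0175) and 1.20 ± 0.42 in the nkx2.2a over the dbx1b sort (edgeR adjusted p = 0.743; DESeq2 0.125). Between olig2 and dbx1b cells the libraries overlapped, with a log2 difference of -0.40 (95% interval -1.33 to 0.53).

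Of the other epidermal-type claudins, cldnf, a periderm claudin, also had both nkx2.2a libraries above the rest, but at low counts, with 19 and 8 fragments in nkx2.2a libraries, 1 and 0 in olig2 libraries, and 1 and 2 in dbx1b libraries. Transcripts of cldne measured 6.47 and 1.21 CPM in nkx2.2a libraries, 6.09 and 0 CPM in olig2 libraries, and 1.62 and 0.141 CPM in dbx1b libraries, with overlap between all sorts. The gene cldni measured 25.6 and 8.47 CPM in nkx2.2a libraries, 20.1 and 13.98 CPM in olig2 libraries, and 11.2 and 19.5 CPM in dbx1b libraries, with overlap in all comparisons. The skin barrier claudin cldn1 was instead highest in the dbx1b libraries, without overlap with the nkx2.2a libraries, at 2.84 and 0 CPM in nkx2.2a libraries, 3.96 and 0.948 CPM in olig2 libraries, and 11.2 and 3.38 CPM in dbx1b libraries (log2 fold change -2.32 ± 2.05 in the nkx2.2a over the dbx1b sort, edgeR adjusted p = 0.936). Of the 6 epidermal-type claudins, 5 had a positive difference in the nkx2.2a over the olig2 sort and 5 in the nkx2.2a over the dbx1b sort, against 51.5% and 49.7% of all symbols. These counts include cldni, at log2 differences of 0.0021 and 0.16, and cldne, at 0.35 and 2.12, all with overlapping libraries. In the olig2 over the dbx1b sort 2 of 6 were positive, against 48% of all symbols. The list was chosen with earlier results of these data known, and cldnf passed the filter only through the nkx2.2a libraries. These counts of signs are therefore a description and no support for a difference.

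Neural-type claudins were represented by cldn11b and cldn5a. The gene cldn11b, a relative of the mammalian myelin claudin, overlapped between all sorts, at 97.3 and 117 CPM in nkx2.2a libraries, 125 and 79.6 CPM in olig2 libraries, and 99.2 and 131 CPM in dbx1b libraries. The 95% intervals of its log2 differences were -0.94 to 1.08 in the nkx2.2a over the olig2 sort, -1.11 to 0.90 in the nkx2.2a over the dbx1b sort and -1.18 to 0.83 in the olig2 over the dbx1b sort. Differences within those intervals were not excluded with 2 libraries a sort. The neuroepithelial gene cldn5a measured 56.5 and 8.17 CPM in nkx2.2a libraries, 39.9 and 9.24 CPM in olig2 libraries, and 43.2 and 9.02 CPM in dbx1b libraries. Library 1 was the higher one in each sort, by 6.92-fold, 4.31-fold and 4.79-fold, while the sorts overlapped entirely. Library 1 was higher by at least 4-fold in all 3 sorts for 226 of the 19129 symbols tested (1.18%), and cldne, whose olig2 library 2 was at 0, was the other member among them. The reverse, library 2 higher by as much in all 3 sorts, held for 105 symbols, cldnc among the members. The gene cldn19 had 22 fragments, 21 of them in dbx1b library 2, and was not tested.

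The claudins cldnj and cldn12 were also found in every library, at means of 26.4 to 28.5 FPKM and 23.7 to 42.5 FPKM over the 3 sorts, beside 37.5 to 41.5 FPKM for cldn11b. The gene cldnj, known in zebrafish from the ear, measured 106 and 107 CPM in nkx2.2a libraries, 119 and 87.7 CPM in olig2 libraries, and 84.3 and 117 CPM in dbx1b libraries. Its log2 differences were 0.04 to 0.09 in size, with 95% intervals inside -0.95 to 1.07. The gene cldn12 measured 153 and 155 CPM in nkx2.2a libraries, 121 and 57.6 CPM in olig2 libraries, and 195 and 137 CPM in dbx1b libraries. It was lowest in the olig2 sort without overlap, with a log2 fold change of 0.79 ± 0.47 in the nkx2.2a over the olig2 sort (edgeR adjusted p = 0.655) and -0.89 ± 0.47 in the olig2 over the dbx1b sort (adjusted p = 0.571). Together, cldn12, cldnj, cldn7b, cldn11b and cldn5a made up 81.4% to 90.9% of the claudin reads of a library.

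Among the remaining claudins, several were detected in part of the sorts at low counts. Transcripts of cldn15a measured 6.47 and 1.21 CPM in nkx2.2a libraries, 0 and 0.948 CPM in olig2 libraries, and 14.95 and 16.1 CPM in dbx1b libraries (log2 fold change -4.96 ± 1.93 in the olig2 over the dbx1b sort, edgeR adjusted p = 0.500). The 4 olig2 fragments all lay in olig2 library 2, and this difference was -4.03 without olig2 library 1 and -10.32 without olig2 library 2, which leaves the olig2 sort at 0, so that its size depends on the prior count. The gene cldn2, whose mammalian counterpart forms cation pores, had 13 and 4 fragments in nkx2.2a libraries, 0 in both olig2 libraries, and 12 and 18 fragments in dbx1b libraries. With the olig2 group counted at 3 fragments, cldn2 pooled over both libraries was 4.41-fold higher in nkx2.2a cells and 5.93-fold higher in dbx1b cells. Such limits leave out the spread between libraries, and neither difference passed by edgeR (adjusted p = 0.561 and 0.493). The gene cldng had 7 and 37 fragments in dbx1b libraries and 0 in the other 4 libraries. Counted at 3 fragments, the nkx2.2a group was 11.2-fold and the olig2 group 8.70-fold below the pooled dbx1b level (edgeR adjusted p = 0.784 and 0.513). Without dbx1b library 2 these limits were 4.05-fold and 3.15-fold, and without dbx1b library 1 they were 16.7-fold and 13.04-fold.

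In cldn8 and cldnh, 1 nkx2.2a library held most of the reads. The gene cldn8 had 8 and 57 fragments in nkx2.2a libraries, 0 and 2 in olig2 libraries and 0 in both dbx1b libraries. With the dbx1b group counted at 3 fragments, the pooled nkx2.2a level was 28.4-fold higher, a limit that leaves out the spread between libraries. The adjusted p was 0.708 by edgeR and 0.0344 by DESeq2. Of its 67 fragments, 57 came from nkx2.2a library 2, and the limit was 5.33-fold without that library and 72.7-fold without nkx2.2a library 1. The gene cldnh measured 34.4 and 0.605 CPM in nkx2.2a libraries, a 56.9-fold difference within the sort, against 1.22 and 6.40 CPM in olig2 libraries and 7.74 and 4.79 CPM in dbx1b libraries. Transcripts of cldn15b measured 14.4 and 4.84 CPM in nkx2.2a libraries, 7.61 and 13.8 CPM in olig2 libraries, and 2.16 and 11.8 CPM in dbx1b libraries, with overlap throughout. The gene cldn10b lay between 4.74 and 10.3 CPM in all libraries. The endothelial claudin cldn5b had 1 fragment in each nkx2.2a library, 0 and 4 in olig2 libraries, and 7 and 44 in dbx1b libraries. The vessel markers listed summed to 70.4 and 56.3 CPM in nkx2.2a libraries, 64.8 and 228 CPM in olig2 libraries, and 58.7 and 86.3 CPM in dbx1b libraries, and their part in the cldn5b level was not tested.

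**Figure D3:**
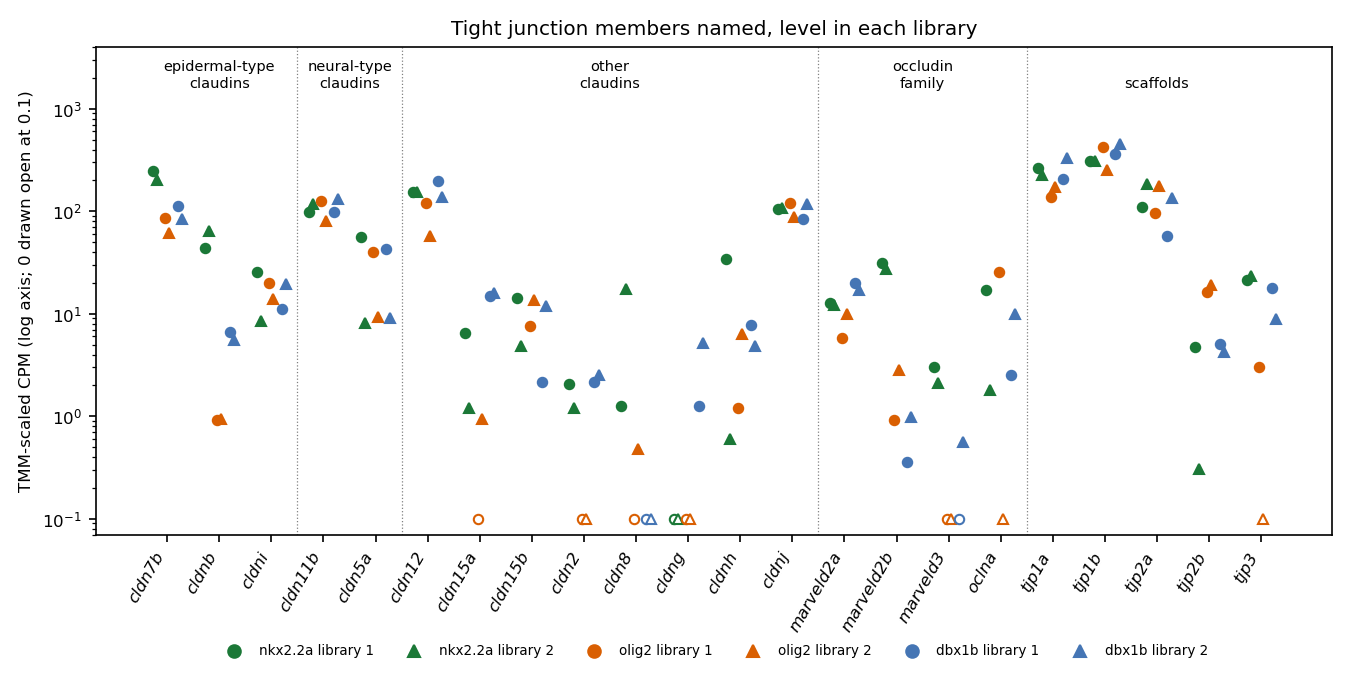
Level of the 22 named tight junction genes in each library, in TMM-scaled CPM on a log axis, grouped by role; circles are library 1, triangles library 2, and open symbols at 0.1 stand for 0 reads. For cldn7b, cldn8, cldnb, marveld2b, marveld3 and tjp3 both nkx2.2a symbols lie above all others, and for cldn5a the circle lies above the triangle in each sort.

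In the occludin family, the tricellulin gene marveld2b stood apart in the nkx2.2a sort. It measured 31.4 and 27.2 CPM in nkx2.2a libraries, 0.913 and 2.84 CPM in olig2 libraries, and 0.360 and 0.987 CPM in dbx1b libraries. Both nkx2.2a libraries lay far above the other 4, with a log2 fold change of 3.95 ± 1.29 over olig2 cells (edgeR adjusted p = 0.537; DESeq2 adjusted p = 0.0150) and 5.41 ± 1.39 over dbx1b cells (edgeR adjusted p = 0.545; DESeq2 1.8e-04). Its paralogue marveld2a did not share this pattern, at 12.6 and 12.1 CPM in nkx2.2a libraries, 5.78 and 9.96 CPM in olig2 libraries, and 19.99 and 16.9 CPM in dbx1b libraries. The dbx1b libraries were the highest for marveld2a, with a log2 difference of -0.58 ± 0.98 in the nkx2.2a over the dbx1b sort (edgeR adjusted p = 0.986).

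The MARVEL domain gene marveld3 had 19 and 7 fragments in nkx2.2a libraries, 0 in both olig2 libraries, and 0 and 4 in dbx1b libraries. With the olig2 group counted at 3 fragments, the pooled nkx2.2a level was 6.75-fold higher. This limit leaves out the spread between libraries, and the difference did not pass by edgeR (adjusted p = 0.566). The occludin gene oclna varied within each sort, at 17.2 and 1.82 CPM in nkx2.2a libraries, 25.6 and 0 CPM in olig2 libraries, and 2.52 and 10.01 CPM in dbx1b libraries, and no comparison separated the libraries. The other occludin gene, oclnb, had 4 fragments in all. The gene marveld1, at 2.37 to 10.3 CPM over the 6 libraries, overlapped between sorts.

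The scaffold genes tjp1a, tjp1b and tjp2a were abundant in every library. Transcripts of tjp1b measured 309 and 308 CPM in nkx2.2a libraries, 420 and 255 CPM in olig2 libraries, and 365 and 455 CPM in dbx1b libraries. Those of tjp1a measured 262 and 225 CPM in nkx2.2a libraries, 138 and 171 CPM in olig2 libraries, and 205 and 332 CPM in dbx1b libraries. The olig2 libraries were the lowest for tjp1a, without overlap (log2 fold change 0.65 ± 0.39 in the nkx2.2a over the olig2 sort and -0.80 ± 0.39 in the olig2 over the dbx1b sort, edgeR adjusted p = 0.651 and 0.545). The gene tjp2a measured 110 and 186 CPM in nkx2.2a libraries, 95.8 and 176 CPM in olig2 libraries, and 57.3 and 136 CPM in dbx1b libraries, with overlap in every comparison.

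For the scaffold gene tjp3 no sort overlapped another in CPM, and for tjp2b the olig2 sort lay apart from both others. The gene tjp3, whose product is known from the outer epithelium of the zebrafish embryo, measured 21.2 and 23.6 CPM in nkx2.2a libraries, 3.04 and 0 CPM in olig2 libraries, and 17.8 and 8.88 CPM in dbx1b libraries. Per length, tjp3 overlapped between the nkx2.2a and dbx1b sorts, at 6.06 and 5.50 FPKM against 6.16 and 2.02 FPKM. Its log2 fold change was 3.89 ± 1.69 in the nkx2.2a over the olig2 sort (edgeR adjusted p = 0.566) and 0.74 ± 1.49 in the nkx2.2a over the dbx1b sort (adjusted p = 0.993). The first difference was 2.88 without olig2 library 2 and 10.88 without olig2 library 1, which leaves the olig2 sort at 0. The gene tjp2b had its highest level in the olig2 sort, at 4.74 and 0.302 CPM in nkx2.2a libraries, 16.4 and 18.96 CPM in olig2 libraries, and 5.04 and 4.23 CPM in dbx1b libraries. The olig2 libraries did not overlap the others for tjp2b, but neither difference passed (-2.79 ± 1.48 in the nkx2.2a over the olig2 sort and 1.93 ± 1.43 in the olig2 over the dbx1b sort, edgeR adjusted p = 0.629 and 0.701). With nkx2.2a library 1 left out the first of these was -5.81, and with library 2 of that sort left out it was -1.89. Reads of tjp1a and tjp1b were spread over all 11 and 16 transcripts listed, the largest holding 11.2% and 7.18%, so they were not resolved by isoform.

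Across the family, 0 of the 31 genes tested passed edgeR's test in any comparison, where it called 0%, 0.00523% and 0% of all symbols for the nkx2.2a over the olig2 sort, the nkx2.2a over the dbx1b sort and the olig2 over the dbx1b sort. At an unadjusted p under 0.05, 6 of 31 were higher in the nkx2.2a over the olig2 sort and 0 lower, against 6.12% and 2.62% of all symbols. The 6 were cldnb, cldn7b, marveld2b, cldn2, marveld3 and tjp3. The libraries of the sorts did not overlap for 14 of the 31, 13 higher and 1 lower, against 20% and 15.7% of all symbols. Of the members counted, marveld3, cldn8, cldnf and cldna passed the filter only through the nkx2.2a libraries. Their direction was thus set by the filter, and they are no support for a shift of the family. The median log2 fold change of the family was 0.40, against 0.05 for all symbols. With genes at 0 in 1 of the sorts counted at their bound and cldng, at 0 in both, left out, it was 0.53. The rise came from leaving out cldng, not from the bounds.

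In the nkx2.2a over the dbx1b sort, 4 of 31 were higher (cldnb, cldn7b, marveld2b and cldn8) and 1 lower (cldng) at an unadjusted p under 0.05, against 3.61% and 2.67% of all symbols. Without dbx1b library 2 the count was 1, and without nkx2.2a library 2 it was 3. Libraries did not overlap for 9 higher and 7 lower members, against 19.1% and 21% of all symbols. The median was 0.31, both with and without bounds, against 0.00 for all symbols to 2 decimals. In the olig2 over the dbx1b sort, 0 were higher and 4 lower (cldnb, cldn15a, cldn2 and cldng) at an unadjusted p under 0.05, against 3.70% and 5.83% of all symbols. This count was 2 without olig2 library 2 and 1 without either dbx1b library. Libraries did not overlap for 3 higher and 9 lower members, against 18.3% and 25.4% of all symbols. The median was -0.28, against -0.05 for all symbols. With bounds it was -0.23, but only because marveld3, whose dbx1b level lay below the olig2 limit, was left out. In these counts marveld3, cldn8, cldnf and cldna passed the filter only through the nkx2.2a libraries, and cldng and cldn5b only through the dbx1b libraries. Their direction in comparisons with that sort was thus set by the filter. The comparisons share libraries, so they are not independent of each other.

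DESeq2 called more. In the nkx2.2a over the olig2 sort it called 3 of 26 members with an adjusted p, all higher (cldn7b, cldnb and marveld2b), against 2.55% of symbols called higher and 0.883% called lower. It called 3 of 25 in the nkx2.2a over the dbx1b sort, all higher (cldn8, cldnb and marveld2b), against 1.51% higher and 0.887% lower. In the olig2 over the dbx1b sort it called 1 of 26, lower (cldnb), against 1.86% higher and 2.35% lower. Among the genes called, cldn8 passed the filter only through the nkx2.2a libraries, where it was high.

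**Figure D4:**
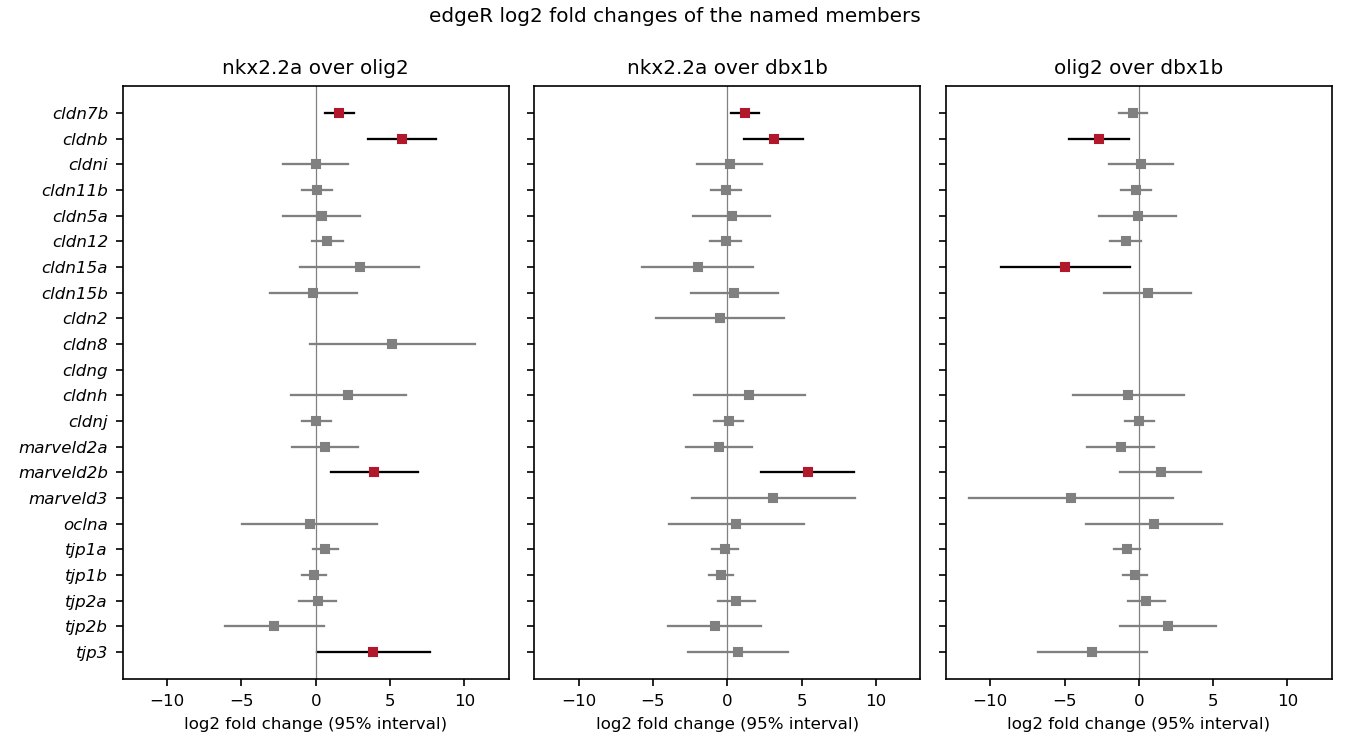
edgeR log2 fold changes (squares) with 95% intervals (lines) of the named tight junction genes in the 3 comparisons. Red squares have an unadjusted p under 0.05. A gene with a group at 0 is left out of that panel, except marveld3 in the olig2 over the dbx1b sort. The position of that square depends on the prior count. The squares of cldnb, at 5.82, 3.13 and -2.69, lie away from 0 in all 3 panels, whereas cldn11b and cldnj stay near 0.

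Other junction genes were taken from a list of 60 tight junction and apical polarity genes, of which 46 were found and 43 tested. By edgeR 0 passed over all genes. At an unadjusted p under 0.05, 5 were higher and 1 lower in the nkx2.2a over the olig2 sort, 3 higher and 0 lower in the nkx2.2a over the dbx1b sort, and 2 higher and 2 lower in the olig2 over the dbx1b sort. The shares of all symbols were 6.12% and 2.62%, 3.61% and 2.67%, and 3.70% and 5.83%. DESeq2 called 3 of 39 (amot and ildr1b higher, jam3a lower), 1 of 38 (crb2a, higher) and 2 of 39 (crb2a and jam3a, higher) in those comparisons, where it called 2.55%, 1.51% and 1.86% of all symbols higher and 0.883%, 0.887% and 2.35% lower. The gene ildr1b, whose mammalian relatives recruit tricellulin to the corners between cells, measured 12 and 44.2 CPM in nkx2.2a libraries, 0.304 and 0 CPM in olig2 libraries, and 1.62 and 4.23 CPM in dbx1b libraries (log2 fold change 3.25 ± 1.46 in the nkx2.2a over the dbx1b sort, edgeR adjusted p = 0.795). The nkx2.2a sort was thus the highest for both ildr1b and marveld2b.

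The apical polarity gene crb2a measured 96.6 and 69.0 CPM in nkx2.2a libraries, 53.3 and 97.9 CPM in olig2 libraries, and 16.2 and 14.9 CPM in dbx1b libraries. The dbx1b sort was lowest without overlap (log2 fold change 2.41 ± 0.59 in the nkx2.2a over the dbx1b sort and 2.28 ± 0.58 in the olig2 over the dbx1b sort, edgeR adjusted p = 0.487 and 0.396). The junctional adhesion molecule gene jam3a was highest in the olig2 sort, at 2.69 and 3.63 CPM in nkx2.2a libraries, 35.9 and 25.6 CPM in olig2 libraries, and 2.88 and 2.54 CPM in dbx1b libraries. The angiomotin gene amot measured 52.7 and 69.9 CPM in nkx2.2a libraries, 9.74 and 11.4 CPM in olig2 libraries, and 7.02 and 22.7 CPM in dbx1b libraries.

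The summed levels of epidermis, of hatching gland and of notochord markers were also at their highest in the nkx2.2a libraries. The 26 epidermis and periderm markers found, of 28 listed, summed to 3049 and 3385 CPM in nkx2.2a libraries, 2091 and 1997 CPM in olig2 libraries, and 1721 and 1120 CPM in dbx1b libraries. Of the nkx2.2a sums, krt8 made up 420 and 600 CPM and krt18 390 and 582 CPM. The median log2 fold change of the 24 tested was 0.34 in the nkx2.2a over the olig2 sort, against 0.05 for all symbols. In the nkx2.2a over the dbx1b sort it was 0.90, against -0.0035. None of the 26 was at 0 in all libraries, and of the 24 tested, 5 were higher in the nkx2.2a over the olig2 sort and 8 in the nkx2.2a over the dbx1b sort at an unadjusted p under 0.05, with 0 lower in both, against 6.12% and 3.61% of all symbols higher. By edgeR 0 of them passed over all genes, and DESeq2 called 4 of 24 and 6 of 23, all higher, against 2.55% and 1.51% of all symbols, among them grhl3, krt8 and krt18 in both. The epithelial regulator gene grhl3 measured 113 and 134 CPM in nkx2.2a libraries, 3.35 and 7.11 CPM in olig2 libraries, and 3.78 and 7.89 CPM in dbx1b libraries. Its olig2 and dbx1b libraries overlapped. The epithelial adhesion gene epcam measured 187 and 187 CPM in nkx2.2a libraries, 68.8 and 92.0 CPM in olig2 libraries, and 25.7 and 15.8 CPM in dbx1b libraries. Keratins krt8 and krt18 of simple epithelia averaged 510 ± 127 and 486 ± 136 CPM in the nkx2.2a sort, 134 ± 5.62 and 109 ± 21.8 CPM in the olig2 sort, and 104 ± 23.3 and 147 ± 71.0 CPM in the dbx1b sort. These 4 genes were picked for the smallest p-values of the list, and their differences exceed the list medians of 0.34 and 0.90.

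The 8 hatching gland markers summed to 1431 and 897 CPM in nkx2.2a libraries, 50.5 and 211 CPM in olig2 libraries, and 105 and 137 CPM in dbx1b libraries. The 8 notochord markers found summed to 803 and 1165 CPM, 233 and 276 CPM, and 486 and 519 CPM in nkx2.2a, olig2 and dbx1b libraries. For hatching gland markers the median log2 fold change was 3.79 over olig2 and 5.72 over dbx1b cells, and for notochord markers 2.07 and 1.59. These medians were larger than those of the epidermis list. At an unadjusted edgeR p under 0.05, 6 and 5 of 8 hatching gland and 5 and 5 of 8 notochord markers were higher. The shares of all symbols were 6.12% and 3.61%. Over dbx1b cells 1 notochord marker was lower, against 2.67%. Ionocyte markers were low everywhere, at 3.81 to 17.8 CPM in sum. Pronephros markers summed to 101 and 231 CPM in nkx2.2a libraries, 128 and 215 CPM in olig2 libraries, and 189 and 291 CPM in dbx1b libraries, with overlap. Gut endoderm markers overlapped too, at 161 and 189 CPM in nkx2.2a libraries, 121 and 72.5 CPM in olig2 libraries, and 106 and 221 CPM in dbx1b libraries. Paraxial mesoderm markers summed to 137 and 373 CPM in nkx2.2a libraries, 189 and 120 CPM in olig2 libraries, and 1359 and 1215 CPM in dbx1b libraries. The part of these cell types in the claudin levels was not tested.

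**Figure D5:**
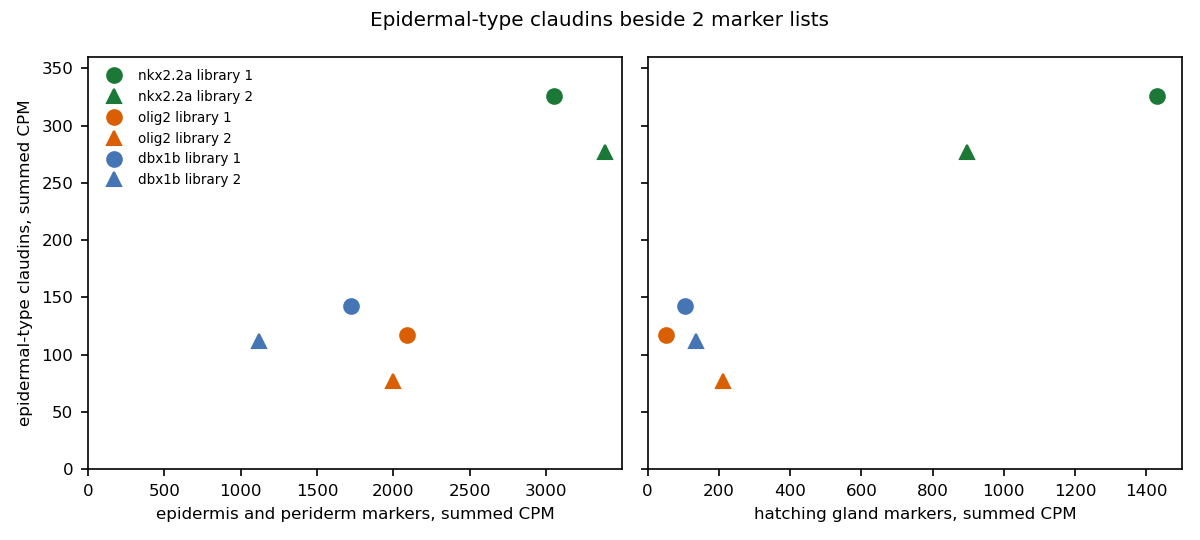
Summed TMM-scaled CPM of the epidermal-type claudins (vertical) against that of epidermis and periderm markers (left) and hatching gland markers (right), 1 symbol per library. The 2 nkx2.2a libraries, at 326 and 277 CPM of epidermal-type claudins, lie apart from the other 4 on both horizontal axes.

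Neighbouring genes had unlike levels in several cases. In the RefSeq table of assembly GRCz12tu, where all 44 genes were matched (40 by transcript accession and 4 by symbol), cldnj, cldne, cldnf and cldna are consecutive protein-coding genes on chromosome 15. Of these, cldnj overlapped between sorts, cldnf and cldna were highest in the nkx2.2a sort at low levels (cldna 4.74 and 8.17 CPM in nkx2.2a libraries, 0.913 and 1.19 CPM in olig2 libraries, and 0.901 and 0.282 CPM in dbx1b libraries), and cldne varied within sorts. On chromosome 21, cldnh, cldnc and cldnb are consecutive, and cldnb kept the sorts apart while cldnh and cldnc (0 to 5.45 CPM) varied within them. The tricellulin and occludin genes also lie in pairs, oclna beside marveld2a on chromosome 10 and oclnb beside marveld2b on chromosome 5. Of the second pair, oclnb had 4 fragments where marveld2b had 313.

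The same table gives claudin names to 10 further symbols that the name rule did not take in, 3 of them with 0 reads and 4 tested. The claudin domain gene cldnd1b measured 16.7 and 69.6 CPM in nkx2.2a libraries, 4.26 and 8.06 CPM in olig2 libraries, and 7.20 and 7.89 CPM in dbx1b libraries (log2 fold change 2.80 in the nkx2.2a over the olig2 sort and 2.51 in the nkx2.2a over the dbx1b sort, edgeR adjusted p = 0.554 and 0.784). Its paralogue cldnd1a, which is a member, had another order, at 4.11 and 11.2 CPM in nkx2.2a libraries, 8.52 and 10.7 CPM in olig2 libraries, and 1.80 and 2.54 CPM in dbx1b libraries. The gene cldn8.2, a relative of cldn8, had 13 and 23 fragments in nkx2.2a libraries, 0 and 2 in olig2 libraries and 0 in both dbx1b libraries. The gene cldn30 measured 1.11 and 18.5 CPM in nkx2.2a libraries, 0 and 0.711 CPM in olig2 libraries, and 1.08 and 3.67 CPM in dbx1b libraries, so its level, like that of cldn8, came mostly from nkx2.2a library 2. The remaining tested gene, cldn28, lay between 0.632 and 1.83 CPM in all 6 libraries.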

How the data were processed

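Counts were the deposited mapped reads per RefSeq transcript, not normalised by the authors, with the length of each transcript beside them. FastQC 0.11.3, Bowtie 1.1.1 and the build GRCz10 are named in the submitters' processing notes without a role. All counts were even, so both mates of a fragment were counted, and 66.6% to 80.6% of reads per library had no transcript and were left out. No source used here says how reads shared by several transcripts, or by paralogues, were placed, or whether strand was used. Counts were summed per symbol. FPKM values were recomputed from counts and transcript lengths.

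The test was edgeR 4.0.16 (R 4.3.3), quasi-likelihood, fitted to all 6 libraries with 1 mean a sort, after filterByExpr (minimum count 10) and TMM scaling, and with Benjamini-Hochberg adjustment over 19129 symbols. CPM values are TMM-scaled, and standard errors derive from the F statistic. DESeq2 1.42.0 and the other settings stand in the closing section. Wilson intervals and floors (3 fragments) cover counting error only. The intervals of log2 differences were built from these standard errors, so they also include the spread between libraries.

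The members and lists were chosen with earlier results of these data known. Named members reached 10 CPM in a group mean or passed an unadjusted p of 0.05 in a comparison; other members given with values were chosen after their values were seen. Named genes outside the family had the 4 smallest p-values of their list, and the 3 reporter genes were added. Gene order came from the zebrafish RefSeq table (assembly GRCz12tu), whose build differs from GRCz10, and coordinates were therefore left out.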

Additional observations from a re-analysis of the deposited data

How the results depend on the processing

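No named member passed edgeR's test over all genes with a library left out, and DESeq2 added the member calls given above (3, 3 and 1 for the nkx2.2a over the olig2 sort, the nkx2.2a over the dbx1b sort and the olig2 over the dbx1b sort). Without a filter beyond 1 count, edgeR called 1 member, cldnb in the nkx2.2a over the olig2 sort (adjusted p = 0.00386). In the same order of comparisons, genes called numbered 0, 1 and 0, DESeq2 called 567, 379 and 695, and no filter gave 233, 238 and 292. In the nkx2.2a over the dbx1b sort the count was 0 without composition scaling or with transcripts as features and 2 with only the 4 libraries compared. In the olig2 over the dbx1b sort it was 3 with the replicate number as a block and 2 with counts halved to fragments. With a library left out, the counts ranged from 0 to 6, 0 to 65 and 0 to 7 (the cause was not tested). Members at an unadjusted p under 0.05, a count chosen after seeing the data, ranged from 4 to 6, 1 to 5 and 1 to 4 with a library left out. They numbered 3 in the nkx2.2a over the dbx1b sort with halved counts and 2 in the olig2 over the dbx1b sort with the replicate block.

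The epidermal-type share of claudin reads without cldn7b was 14.6%, 6.18% and 6.10% in nkx2.2a, olig2 and dbx1b cells, and per kilobase it was 50.4%, 29.0% and 29.5%. The nkx2.2a sort stayed highest in both. The ratios without cldn11b and the limits with a library left out were chosen after seeing the data.

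Of 66 differences of named members, 28 changed sign when a library was left out, none of them called, with ranges as follows on the log2 scale. In the nkx2.2a over the olig2 sort these were cldn11b -0.21 to 0.42, cldn15b -1.15 to 0.44, cldn5a -1.58 to 1.81, cldnh -2.64 to 3.86, cldni -1.01 to 0.60, cldnj -0.15 to 0.28, oclna -2.79 to 9.66, tjp1b -0.43 to 0.27 and tjp2a -0.29 to 0.64. In the nkx2.2a over the dbx1b sort these were cldn11b -0.31 to 0.13, cldn12 -0.33 to 0.15, cldn15b -0.54 to 2.16, cldn5a -1.65 to 1.83, cldnh -3.33 to 2.45, cldni -0.85 to 0.73, cldnj -0.14 to 0.36, oclna -1.79 to 1.93, tjp1a -0.46 to 0.26 and tjp2b -3.87 to 0.025. In the olig2 over the dbx1b sort these were cldn11b -0.54 to 0.083, cldn15b -0.16 to 2.31, cldn5a -1.51 to 1.42, cldnh -2.38 to 0.021, cldni -0.21 to 0.62, cldnj -0.21 to 0.30, oclna -9.06 to 2.33, tjp1b -0.70 to 0.0070 and tjp2a -0.038 to 1.26. The oclna values of 9.66 and -9.06 came without olig2 library 1, which leaves the olig2 sort at 0, so that their size depends on the prior count. The replicate block also turned cldn15b (0.081), cldni (-0.072) and oclna (0.33) in the nkx2.2a over the olig2 sort, cldni (-0.016) and oclna (-1.44) in the nkx2.2a over the dbx1b sort, and oclna (-1.77) in the olig2 over the dbx1b sort. The cldni difference in the nkx2.2a over the olig2 sort, 0.0021, was -0.027 with RLE scaling, -0.025 with DESeq2, -0.0059 without a filter, -0.0022 with only the 4 libraries compared and -0.016 with halved counts. With a library left out cldnb stayed within 5.54 to 6.07, 2.83 to 3.40 and -2.81 to -2.56 in the 3 comparisons. For the nkx2.2a sort over the olig2 and the dbx1b sort, cldn7b ranged from 1.39 to 1.86 and from 1.02 to 1.41, and marveld2b from 3.36 to 4.999 and from 4.86 to 6.31. The range of cldn12 was 0.36 to 1.41 in the nkx2.2a over the olig2 sort. The samples share only a number: deviations of same-numbered libraries did not correlate between sorts (r = -0.0142 to 0.0235 across genes), so the numbers were not taken to pair the libraries.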
